A study of Sus scrofa with 12 samples.

Results

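The 45 genes described here are the Wnt ligands, their receptors and secreted inhibitors, and 4 genes of the response inside the cell, in the endometrium of sows. They were chosen by symbol from the 20674 genes of the deposited table: every gene whose symbol starts with WNT, FZD, SFRP or DKK followed by a digit, together with FRZB, WIF1, LRP5, LRP6, AXIN2, LEF1, TCF7 and CTNNB1. Classed by symbol alone, they are 19 ligands, 10 Frizzled receptors, 2 LRP co-receptors, 10 secreted inhibitors and 4 effectors or targets. Of these, 38 had enough reads to be tested, and WNT1, WNT3A, WNT8A, WNT9B, WNT16, FZD9 and DKK1 did not.

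Wnt proteins are secreted, lipid-modified signals that bind a Frizzled receptor together with the co-receptor LRP5 or LRP6. In the canonical branch this stops the breakdown of β-catenin, the product of CTNNB1, which then acts with LEF1, TCF7 and related factors on target genes such as AXIN2. SFRP proteins, FRZB and WIF1 bind the ligands outside the cell, and DKK1, DKK2 and DKK4 bind the co-receptors. In the uterus, Wnt signals are known for their part in gland formation, in the exchange between epithelium and stroma and in the preparation for pregnancy.

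The libraries came from Landrace × Yorkshire sows that received 1 of 4 diets from breeding over 114 days. The low-fiber (LF) diet held 3.73% crude fiber and the high-fiber (HF) diet 7.46%, each without or with 0.05% N-carbamylglutamate (NCG), an activator of arginine synthesis. The groups were L − N (LF alone, the basal control), L + N, H − N and H + N, with 3 libraries each. All sows had been bred, and the sources used here do not state whether a sow was sampled before or after farrowing.

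Total counts ran from 14369781 to 19309724 reads per library. Levels are given as CPM (read counts relative to the library total, scaled by the TMM method of edgeR) where one gene is compared between libraries, and as FPKM (fragments per kilobase of gene length, also relative to the library total) where genes are compared with each other. A floor of 3 reads corresponded to 0.146 to 0.208 CPM. Markers of stroma and epithelium were present throughout, with DCN at 2105 to 3889 CPM and EPCAM at 187 to 374 CPM. CYP19A2, the placental aromatase of the pig, had 0 reads in 12 libraries. It was 1 of 5 conceptus markers listed, 4 of them in the table. PAG1 was at 22.1 to 46.4 CPM, PLAC8 at 3.90 to 33.0 CPM and CGA at 0 to 0.981 CPM. A contribution of conceptus RNA was not tested. On the first principal component (26.7% of the variance of all tested genes), L − N replicates 2 and 3 lay at −67.2 and −65.5, L − N replicate 1 at −22.6 and the other 9 libraries between 1.06 and 28.2. Red blood cell markers summed to 752 and 513 CPM in L − N replicates 1 and 3, and to 26.5 to 292 CPM in the other 10 libraries. L − N replicate 1 also differed from the rest of its group: a list of 8 smooth muscle markers summed to 5547 CPM there, against 902 to 2154 CPM in the other libraries. The gland factor FOXA2 was at 43.0 CPM in it, against 5.77 and 15.8 CPM in the other L − N libraries. RNA of a whole tissue was measured, so fewer cells of a type and less RNA per cell cannot be told apart.

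One ligand made up most of the Wnt ligand RNA. WNT2, a ligand of the canonical branch, had a mean of 76.6 FPKM and held 48.6% to 74.9% of the summed FPKM of the 19 ligands. Its lowest library (57.1 FPKM) lay above the highest library of WNT5A, the next ligand, which ranged from 9.44 to 47.1 FPKM. WNT6 and WNT7A, a ligand of the uterine epithelium, followed with means of 5.76 and 5.28 FPKM and wide, overlapping ranges. WNT9A was at 2.75 FPKM, and WNT4, WNT5B, WNT7B, WNT11 and WNT2B lay between 0.834 and 1.63 FPKM. The remaining 9 ligands had means of at most 0.237 FPKM. WNT1 had 1 read, in a single H + N library. WNT16 reached 52 reads (3.19 CPM) in H + N replicate 3 and at most 5 reads in any library of the other groups.

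The receptors were more even than the ligands. FZD6 was the most abundant Frizzled receptor with a mean of 25.3 FPKM, and its lowest library (15.8 FPKM) just exceeded the highest of FZD4 (15.7 FPKM). The ranges of FZD5 and FZD7 overlapped that of FZD6, with highest libraries at 20.5 and 19.3 FPKM. FZD4, FZD5, FZD1, FZD10 and FZD2 had means between 9.40 and 10.8 FPKM and overlapped each other. FZD9 was near the floor in most libraries, at 0.0239 to 0.119 FPKM. Both co-receptors were present, LRP6 at 16.1 and LRP5 at 12.7 FPKM.

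Inhibitors exceeded ligands on the FPKM scale. FRZB led with a mean of 89.2 FPKM (33.6 to 171 over the 12 libraries), followed by SFRP2 (61.3), DKK3 (49.8) and SFRP1 (36.3), and the ranges of these 4 genes overlapped. SFRP4 was at 11 and WIF1 at 5.57 FPKM, while DKK1, DKK2, DKK4 and SFRP5 were all below 1 FPKM on average. CTNNB1 had the highest mean of the whole set over the 12 libraries, 127 FPKM, ahead of AXIN2 at 34.1, LEF1 at 11.6 and TCF7 at 10.5 FPKM. In H + N the mean of FRZB was higher, at 131 FPKM against 114 FPKM for CTNNB1. The summed FPKM of the ligands (mean ± SD, n = 3) amounted to 97.0 ± 4.93 for L − N and 140 ± 18.5 for L + N, compared with 113 ± 21.7 for H − N and 138 ± 27.6 for H + N. That of the inhibitors, in the same order, was 265 ± 69.9, 241 ± 68.7, 243 ± 63.5 and 272 ± 68.4, so the spread within groups was larger than the distance between their means.

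**Figure D1:**
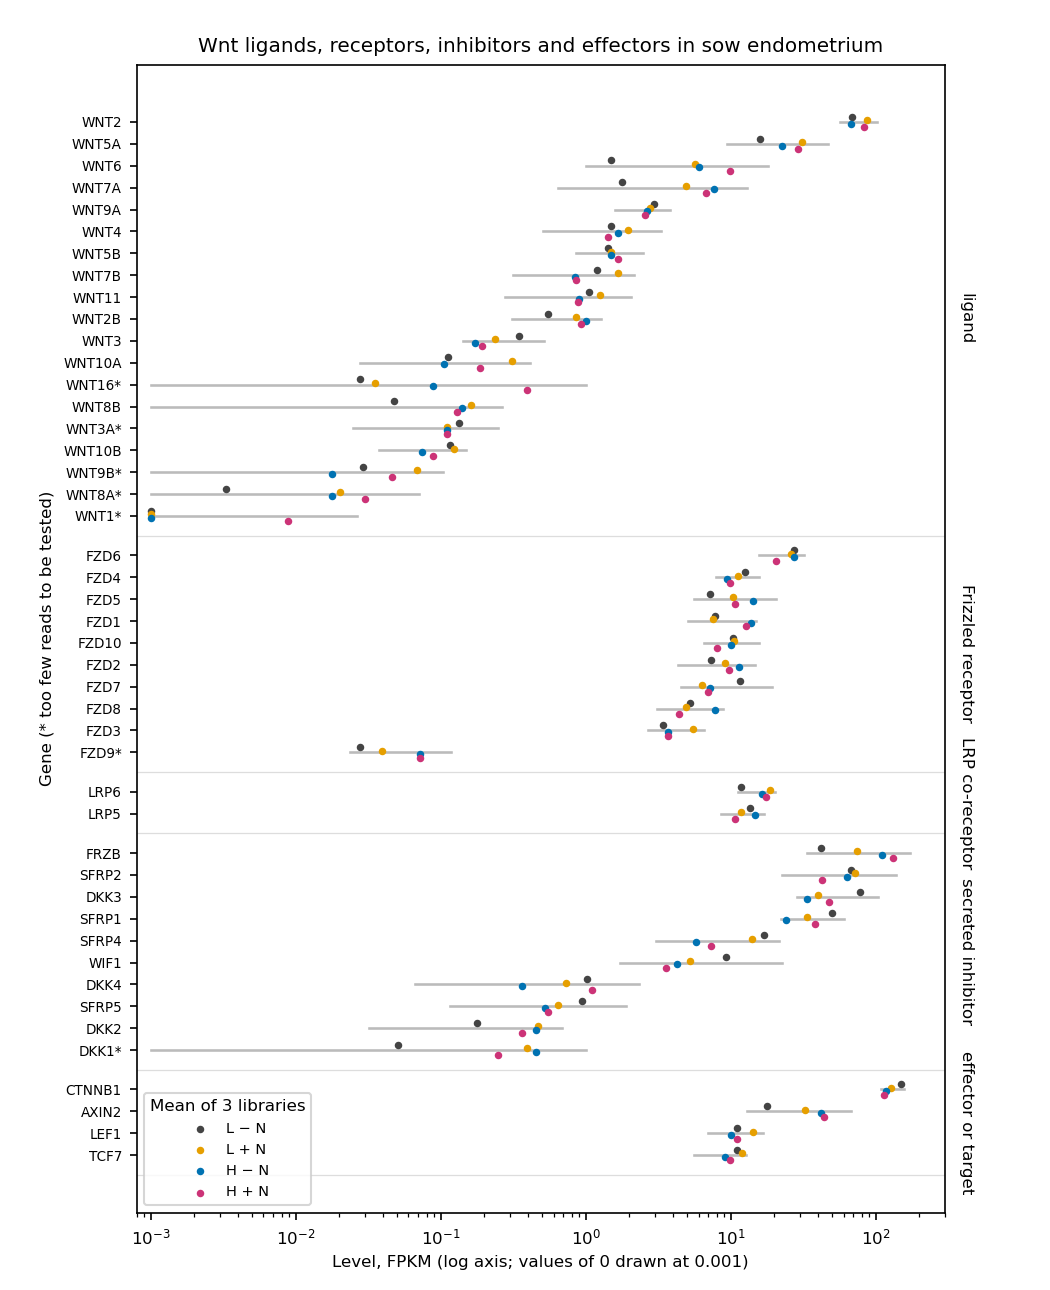
Level of each of the 45 genes in FPKM on a log axis, ordered by role and mean level. Points are the means of 3 libraries per group, grey lines run from the lowest to the highest of the 12 libraries, and a star marks the 7 genes with too few reads to be tested. WNT2, FZD6, LRP6, FRZB and CTNNB1 lead their classes.

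To measure the effect of the diets, each group was compared with L − N. A gene was called differentially expressed at an adjusted p-value below 0.05 (edgeR, Benjamini-Hochberg over 15351 genes) when its absolute log2 fold change also exceeded 1. The 3 comparisons share the L − N libraries and are not independent of each other. For H + N against L − N, 2 of the 38 tested genes were called, AXIN2 and WNT6, both higher. Over all genes 3.58% were called in this comparison, 2.29% higher and 1.28% lower. For H − N, 2 were called, DKK3 and SFRP4, both lower, beside 2.91% of all genes (0.892% higher and 2.01% lower). For L + N, 1 was called, DKK3, which was lower, beside 3.99% of all genes (3.32% higher and 0.671% lower). At an adjusted p below 0.05 without a fold threshold, 3 of 38 genes passed for H + N (7.97% of all genes), 4 for H − N (5.27%) and 2 for L + N (9.60%). Without the fold threshold the share of the set was thus about that of all genes for H + N, above it for H − N and below it for L + N, each on 4 genes or fewer. The median log2 fold change of the 38 genes was −0.16 for H + N, −0.08 for H − N and −0.01 for L + N, against 0.02, 0.03 and −0.02 over all genes.

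**Figure D2:**
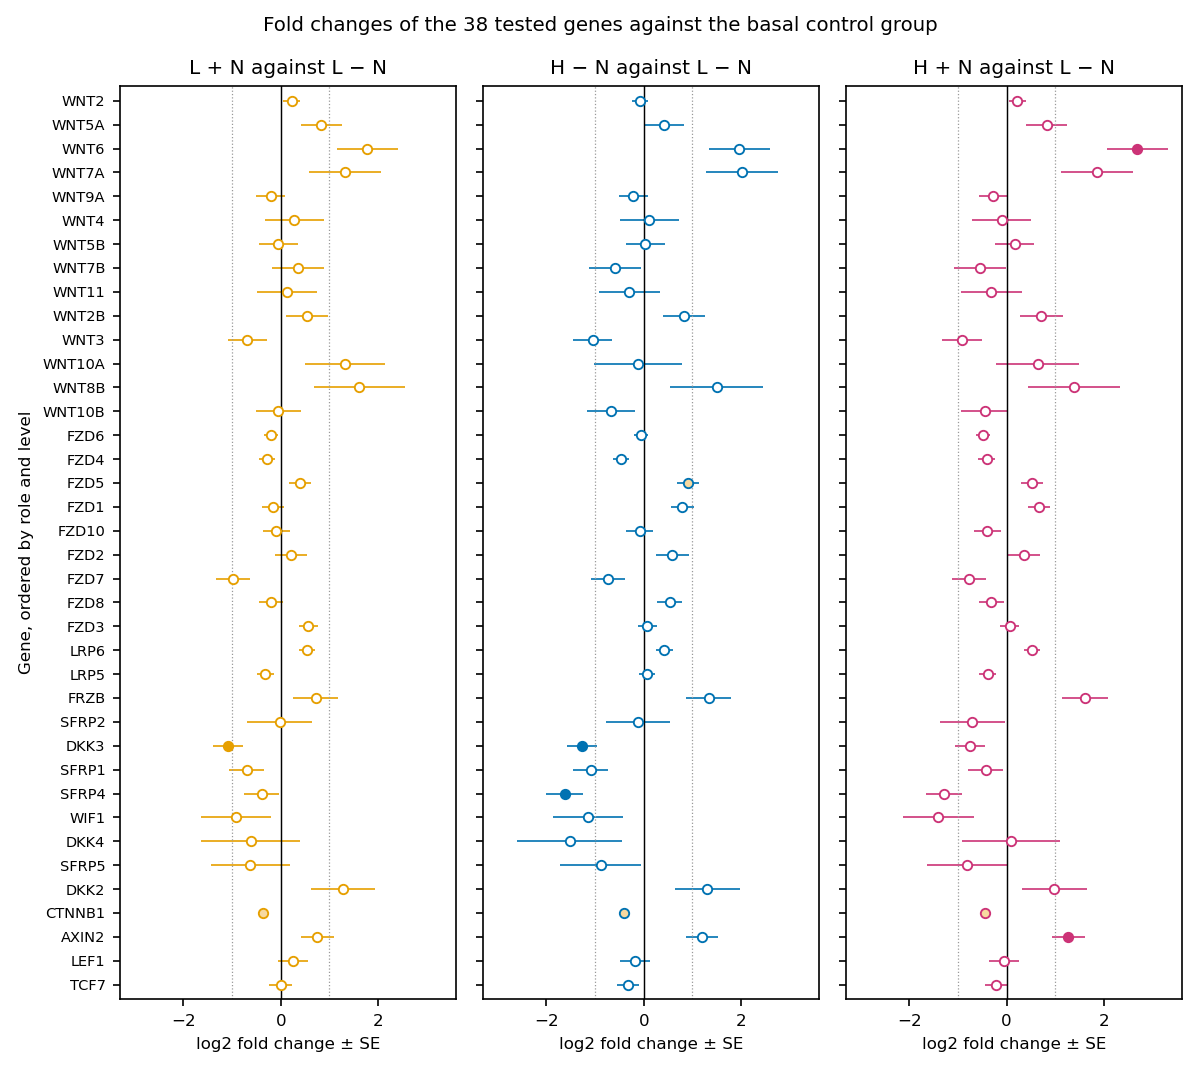
log2 fold change ± SE (edgeR) of the 38 tested genes in each group against L − N, ordered by role and level. Filled points passed both thresholds, pale points had an adjusted p below 0.05 with a smaller fold, open points did not pass, and dotted lines mark log2 fold changes of −1 and 1. Filled points are DKK3 in L + N, DKK3 and SFRP4 in H − N, and WNT6 and AXIN2 in H + N.

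WNT6 was the only ligand called among the 14 tested. It stood at 1.59, 3.82 and 1.95 CPM in L − N (replicates 1, 2 and 3), 8.69, 3.61 and 13.1 CPM in L + N, 10.9, 5.83 and 12 CPM in H − N, and 11.6, 6.46 and 29.5 CPM in H + N. Every H − N and H + N library exceeded every L − N library, while L + N replicate 2 fell within the L − N range. In H + N it rose 6.43-fold (log2 fold change 2.68 ± 0.63 (SE), edgeR's adjusted p = 0.0313). The log2 fold change was 1.96 ± 0.62 in H − N (edgeR's adjusted p = 0.0886) and 1.78 ± 0.62 in L + N (0.0938), neither past the threshold. The gene (100622044) lies on the plus strand of chromosome 15, from 120901471 to 120917359 on Sscrofa11.1, and overlaps no other gene of the table. Its call in H + N was lost without replicate 1 or 3 of L − N (edgeR's adjusted p = 0.0544 and 0.121) and without replicate 1 or 3 of H + N (0.0725 and 0.0902). H + N replicate 3 was the highest library, and without it the log2 fold change was 1.87.

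The other ligands gave no call. WNT2, the most abundant one, was at 441, 432 and 473 CPM in L − N, 448, 518 and 611 in L + N, 345, 533 and 398 in H − N, and 592, 476 and 502 in H + N. The H + N libraries all lay above L − N, but by a log2 fold change of 0.22 ± 0.17 (edgeR's adjusted p = 0.438). WNT7A ranged from 2.22 to 12.4 CPM in L − N and from 7.28 to 40.2 CPM in the 9 other libraries. Its log2 fold changes were among the highest of the set, 2.02 ± 0.75 in H − N and 1.85 ± 0.75 in H + N, with edgeR's adjusted p of 0.130 and 0.135. WNT3 had low levels, and its values did not overlap between L − N (1.40 to 2.96 CPM) and H − N (0.828 to 1.11 CPM), with a log2 fold change of −1.05 ± 0.41 (edgeR's adjusted p = 0.142).

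AXIN2, a scaffold protein of the β-catenin destruction complex whose gene is itself a widely used readout of canonical signaling, rose in H + N. It was at 141, 77.4 and 72.5 CPM in L − N, 147, 155 and 189 in L + N, 226, 193 and 250 in H − N, and 185, 146 and 370 in H + N. All 9 libraries of the other groups exceeded all 3 L − N libraries. The nearest were L − N replicate 1 at 141 CPM and H + N replicate 2 at 146 CPM. The fold change was 2.41 in H + N (log2 1.27 ± 0.34, edgeR's adjusted p = 0.0443), 2.30 in H − N (log2 1.20 ± 0.34, edgeR's adjusted p = 0.0629) and 1.68 in L + N (log2 0.75 ± 0.33, edgeR's adjusted p = 0.171), so that H + N alone passed the threshold. The H + N call was lost without L − N replicate 2 or 3, any L + N library, replicate 1 or 2 of H − N, or replicate 1 or 3 of H + N, with edgeR's adjusted p between 0.0544 and 0.152. The gene (100739604) lies on the minus strand of chromosome 12, from 12311293 to 12343207. It overlaps CEP112 on the same strand over 2925 bp, and how reads in the shared stretch were assigned is not given in the sources used here. CEP112 was at 2.69 to 9.61 CPM. A list of 6 markers of dividing cells was also higher in the 3 groups than in L − N. It summed to 69.8, 154 and 52.9 CPM in L − N, 290 to 399 in L + N, 166 to 214 in H − N and 270 to 366 in H + N. Of its genes, 5, 1 and 5 were called higher for H + N, H − N and L + N. As for AXIN2, all 9 libraries of the other groups exceeded all 3 L − N libraries. The list was highest in L + N and AXIN2 in H + N. Within L − N the list was highest in replicate 2 and AXIN2 in replicate 1. The part of dividing cells in the AXIN2 result was not tested.

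CTNNB1, which encodes β-catenin, was lower in all diets than in L − N by a small margin. Its values were 688, 759 and 690 CPM in L − N, 539, 568 and 551 in L + N, 516, 564 and 530 in H − N, and 505, 547 and 516 in H + N. The L − N libraries stood above all others, and the coefficient of variation over the 12 libraries, 14.3%, was the lowest of the 38 genes. The log2 fold changes were −0.45 ± 0.10 in H + N (edgeR's adjusted p = 0.0281), −0.41 ± 0.10 in H − N (0.0426) and −0.37 ± 0.10 in L + N (0.0432), all within the fold threshold. Over the alternative fits, by edgeR or DESeq2, the adjusted p reached at most 0.108, 0.137 and 0.140 in the same order. In a fit that pairs equal replicate numbers, edgeR's adjusted p was 0.0412, 0.0644 and 0.0586. Other markers were also lower in these groups: all 8 smooth muscle markers had log2 fold changes below 0 in each of them, with medians of −1.10 in H + N, −1.06 in H − N and −1.51 in L + N (2 called, in L + N), as had the 7 macrophage markers described with DKK3. The smooth muscle list summed to 5547, 1712 and 2154 CPM in L − N replicates 1, 2 and 3, and to 902 to 1689 CPM in the other groups. The macrophage list summed to 2607 and 2672 CPM in L − N replicates 2 and 3, and to 1003 CPM in L − N replicate 1. The part of smooth muscle or macrophage RNA in the CTNNB1 result was not tested. LEF1 and TCF7, the DNA-binding partners of β-catenin, gave no call, with log2 fold changes between −0.33 and 0.26 against L − N. CTNNB1 (397657) lies on chromosome 13, from 25163550 to 25208314, and shares 425 bp with ULK4 and 5300 bp with an uncharacterized gene, both on the opposite strand.

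Both called genes of the inhibitor class, SFRP4 and DKK3, were lower in H − N. SFRP4, which resembles the ligand-binding part of a Frizzled receptor, was at 37.0, 32.1 and 21.5 CPM in L − N, 25.1, 22.6 and 21.3 in L + N, 11.09, 12.8 and 5.52 in H − N, and 12, 18.5 and 6.62 in H + N. All 6 HF libraries lay below all 6 LF libraries. It fell 3.07-fold in H − N (log2 fold change −1.62 ± 0.38, edgeR's adjusted p = 0.0372). In H + N the log2 fold change was −1.28 ± 0.37 (edgeR's adjusted p = 0.0575). The H − N call was kept without L − N replicate 1 and without H + N replicate 2 or 3, and was lost when any of the other 9 libraries was left out (edgeR's adjusted p between 0.0552 and 0.0949). SFRP4 (100145890) lies on chromosome 9, from 108404314 to 108414335, minus strand.

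DKK3, the divergent member of the Dickkopf family, fell in H − N and in L + N. It was at 135, 299 and 236 CPM in L − N, 91.2, 105 and 119 in L + N, 83.5, 78.4 and 115 in H − N, and 110, 96.5 and 190 in H + N. The L + N and H − N libraries lay below all L − N libraries, whereas H + N replicate 3 exceeded L − N replicate 1. The log2 fold change was −1.28 ± 0.31 in H − N (edgeR's adjusted p = 0.0409), −1.09 ± 0.31 in L + N (0.0483) and −0.76 ± 0.31 in H + N (0.137). Without L − N replicate 2, the highest library, it was −1.01 in H − N (edgeR's adjusted p = 0.124) and −0.82 in L + N (0.151). Both calls held without L − N replicate 1 and H + N replicates 2 and 3, the L + N call also without H − N replicate 3, and each other library left out ended them, with edgeR's adjusted p between 0.0506 and 0.140 in H − N and between 0.0584 and 0.151 in L + N. The gene (664653) lies on chromosome 2, from 47385244 to 47444664, plus strand. A list of 7 macrophage markers also had log2 fold changes below 0 in each of the 3 groups. Its summed level was 2607 and 2672 CPM in L − N replicates 2 and 3, 1003 in L − N replicate 1, 820 to 1159 in L + N, 511 to 759 in H − N and 830 to 1044 in H + N. Of these 7 markers, 6 were called lower in H − N, 2 in L + N and 3 in H + N. Their part in the DKK3 result was not tested.

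FRZB, the most abundant inhibitor, differed in the other direction. It was at 130, 91.3 and 111 CPM in L − N, 144, 125 and 277 in L + N, 421, 270 and 147 in H − N, and 426, 148 and 444 in H + N. The HF libraries all exceeded L − N, yet one library in each HF group was low (147 and 148 CPM) and the others were at 270 CPM or more. The log2 fold change was 1.61 ± 0.47 in H + N (edgeR's adjusted p = 0.0567) and 1.34 ± 0.47 in H − N (0.111), so neither passed. SFRP1 was at 252, 239 and 168 CPM in L − N, 194, 104 and 109 in L + N, 98.3, 98.1 and 114 in H − N, and 94.5, 126 and 268 in H + N. The H − N libraries lay below L − N and close together (log2 fold change −1.09 ± 0.36, edgeR's adjusted p = 0.0978), whereas H + N replicate 3 was the highest of the 12. Over the 9 tested inhibitors the median log2 fold change was −1.09 in H − N, −0.70 in H + N and −0.62 in L + N. Over all genes it was 0.03, 0.02 and −0.02. In H − N 7 of 9 estimates were below 0, with SFRP2, second in level to FRZB, at −0.11 ± 0.66. WIF1, DKK4 and SFRP5 each had 1 high L − N library, at 52.8, 4.45 and 2.23 CPM. The other L − N libraries were at most at 8.40, 0.764 and 0.604 CPM.

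**Figure D3:**
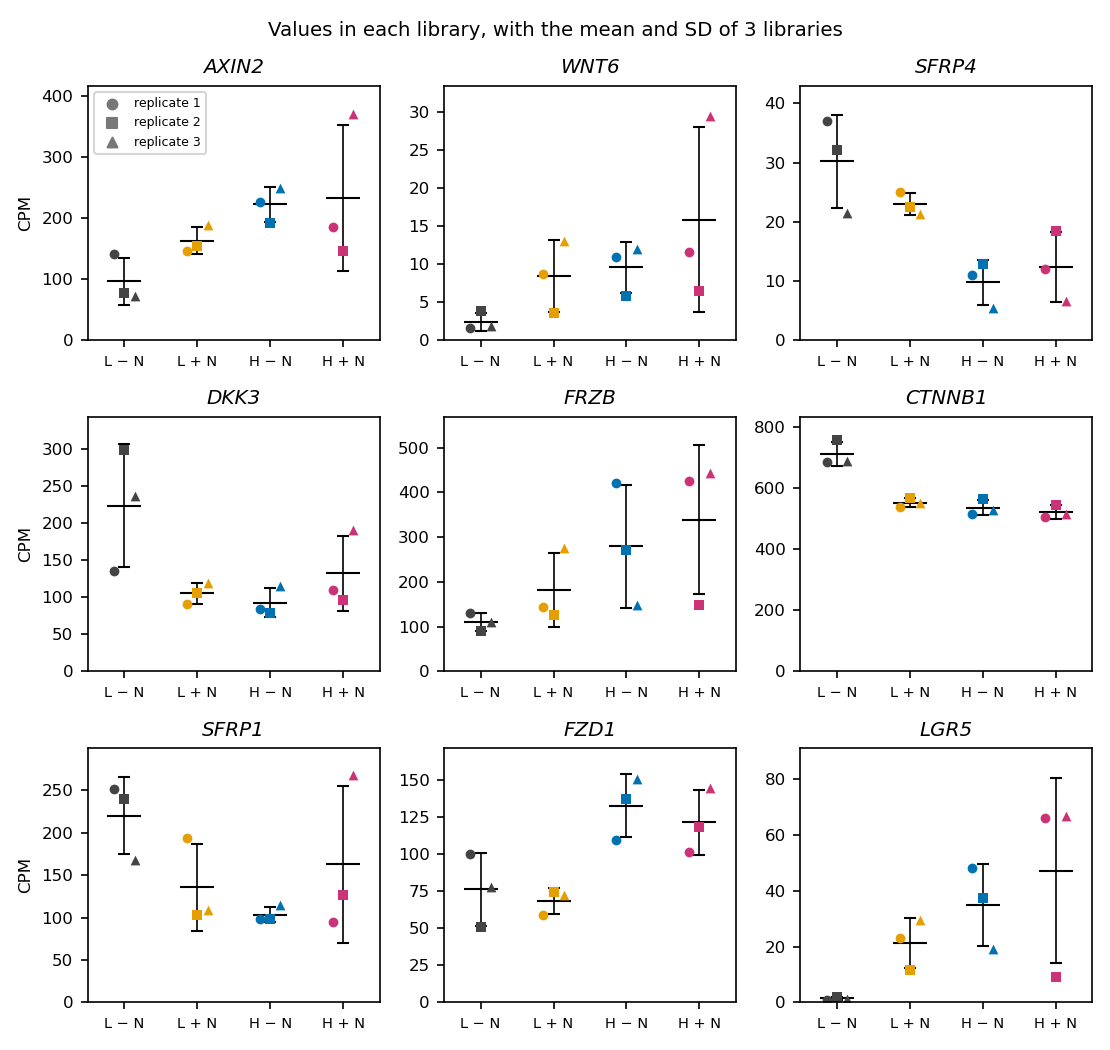
CPM of 8 genes of the set and of LGR5 in each of the 12 libraries, with the mean and SD of 3 libraries per group, each axis starting at 0. AXIN2, WNT6 and LGR5 are lowest in L − N, CTNNB1 is highest there, and SFRP4 and FZD1 separate the HF from the LF libraries.

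Among the Frizzled receptors, FZD5 came nearest to a call. It stood at 51.3, 50.2 and 36.9 CPM in L − N, 59.0, 64.2 and 59.1 in L + N, 122, 78.4 and 60.5 in H − N, and 74.1, 67.0 and 57.8 in H + N. Each library of the other groups was above L − N, and the log2 fold change in H − N was 0.91 ± 0.23 (edgeR's adjusted p = 0.0430), under the fold threshold. FZD1 was at 100, 51.1 and 77.9 CPM in L − N, 58.8, 74.5 and 72.2 in L + N, 109, 138 and 151 in H − N, and 101, 118 and 145 in H + N. Its HF and LF libraries did not overlap, with L − N replicate 1 and H + N replicate 1 side by side. FZD1 lies wholly inside MTERF1 on the opposite strand, and the strand setting of the counting is not given in the sources used here. MTERF1 was at 14.6 to 35.6 CPM.

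The co-receptors LRP5 and LRP6 were not called. LRP6 was at 109, 120 and 123 CPM in L − N, 155, 188 and 170 in L + N, 117, 180 and 175 in H − N, and 194, 158 and 153 in H + N. The NCG groups lay above L − N, with log2 fold changes of 0.54 ± 0.17 in L + N (edgeR's adjusted p = 0.0606) and 0.52 ± 0.17 in H + N (0.0712). LRP5 was at 91.0, 69.6 and 63.7 CPM in L − N, 56.1, 55.2 and 69.1 in L + N, 81.6, 73.0 and 79.9 in H − N, and 45.6, 66.4 and 59.3 in H + N, with no group clear of L − N.

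By the plain criterion of libraries that do not overlap, 11 of the 38 genes stood apart from L − N in H + N, 11 in H − N and 9 in L + N. The shares over all genes were 28.0%, 25.4% and 35.3%.

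The main effects compared 6 libraries with 6. For DF (mean of H − N and H + N against mean of L − N and L + N), 0 of the 38 genes were called by edgeR, beside 0.0261% of all genes. At an unadjusted p below 0.05 there were 10 (6 higher and 4 lower in HF), beside 19.5% of all genes. DESeq2 called 3 genes of the set (FRZB, SFRP4 and WNT6), beside 290 over all genes. FZD1 had a log2 fold change of 0.81 ± 0.16 and SFRP4 of −1.26 ± 0.27, both with edgeR's adjusted p = 0.0678. These were the only genes of the set whose HF and LF libraries did not overlap, which 0.886% of all genes showed. AXIN2 (log2 fold change 0.86 ± 0.24, edgeR's adjusted p = 0.105), FRZB (1.12 ± 0.33, 0.116) and WNT6 (1.43 ± 0.43, 0.121) did not pass either.

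For NCG (mean of L + N and H + N against mean of L − N and H − N), 0 genes of the set were called by edgeR, beside 1.80% of all genes. At an unadjusted p below 0.05 there were 6 (2 higher and 4 lower with NCG), beside 23.6% of all genes. DESeq2 called 1 gene of the set (WNT6), beside 355 over all genes. LRP5 had a log2 fold change of −0.38 ± 0.12 (edgeR's adjusted p = 0.0788) and LRP6 of 0.32 ± 0.12 (0.125). FZD6 was at 81.8, 68.4 and 66.3 CPM in L − N and 67.5, 66.6 and 72.9 in H − N, against 64.7, 63.9 and 60.1 in L + N and 51.3, 62.4 and 41.6 in H + N. It was the only gene of the set without overlap between libraries with and without NCG, shared by 3.99% of all genes, and its log2 fold change was −0.31 ± 0.10 (edgeR's adjusted p = 0.0960). FZD8 was at 16.4, 18.1 and 11.3 CPM in L − N, 14.2, 13.7 and 11.8 in L + N, 23.2, 16.9 and 26.1 in H − N, and 8.70, 15.3 and 12.8 in H + N. The highest libraries were H − N replicates 1 and 3, and the log2 fold change with NCG was −0.53 ± 0.18 (edgeR's adjusted p = 0.101). The NCG effects on the HF and LF diets were not shown to differ (interaction −0.64 ± 0.35, edgeR's adjusted p = 0.480).

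The interaction, which is the NCG effect on the HF diet minus that on the LF diet, called 0 of the 38 genes, as it called 0.00% of all genes with edgeR. DESeq2 called 1 gene of the set (DKK3), beside 184 over all genes. At an unadjusted p below 0.05 there were 4 genes of the set, beside 12.8% of all genes. DKK3 had the largest estimate among them, 1.61 ± 0.43 on the log2 scale (edgeR's adjusted p = 0.257), followed by SFRP1 with 1.35 ± 0.50 (0.322), FZD5 with −0.79 ± 0.32 (0.341) and CTNNB1 with 0.33 ± 0.14 (0.368).

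**Figure D4:**
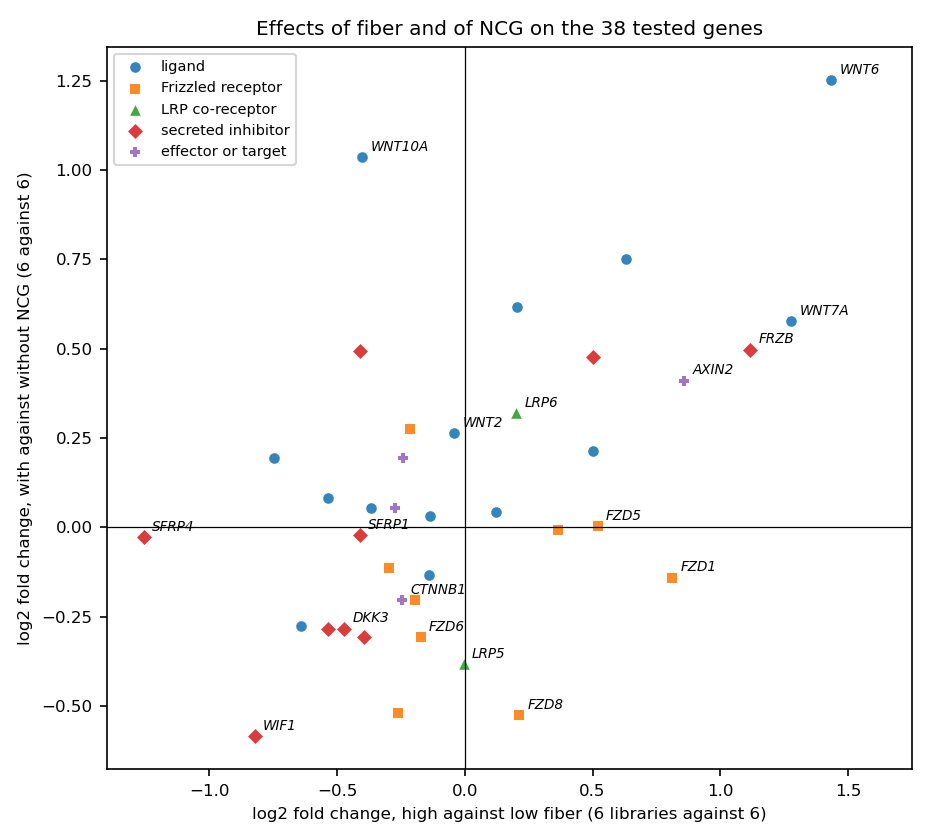
log2 fold changes of the 38 tested genes for HF against LF (x axis) and for with against without NCG (y axis), each from 6 against 6 libraries, with the symbol showing the role. No point passed the thresholds of edgeR. SFRP4 and FZD1 lie far along the fiber axis with NCG estimates near 0, while WNT6 is positive on both axes.

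Of 71 other genes of the pathway in the table, 67 were tested. Calls were 1 for H + N (1.49% of the 67), 1 for H − N (1.49%), 3 for L + N (4.48%) and 1 for NCG (1.49%), all higher, beside 3.58%, 2.91%, 3.99% and 1.80% of all genes. For DF and the interaction 0 were called by edgeR, with 10 and 7 of the 67 at an unadjusted p below 0.05, beside 19.5% and 12.8% of all genes. DESeq2 called 2 in each, beside 290 and 184 over all genes. LGR5, a receptor for R-spondins and itself a Wnt target in several epithelia, was at 0.955, 2.01 and 1.28 CPM in L − N, 23.1, 11.5 and 29.4 in L + N, 48.1, 37.3 and 19.2 in H − N, and 66.0, 8.96 and 66.9 in H + N. All 9 libraries on the other diets exceeded L − N. The log2 fold changes were 5.05 ± 0.77 in H + N (edgeR's adjusted p = 0.0136), 4.62 ± 0.76 in H − N (0.0186), 3.91 ± 0.74 in L + N (0.0127) and 2.17 ± 0.48 for NCG (0.0214). The NCG value is a mean over both diets, and the estimate on the HF diet minus that on the LF diet was −3.47 ± 0.95 (edgeR's adjusted p = 0.257). All 4 calls were lost without L − N replicate 3 (edgeR's adjusted p between 0.0614 and 0.0936), those of H + N and NCG also without H + N replicate 1 (0.0587 and 0.0541), and that of H − N without H − N replicate 1 (0.0580). Its gene shares 19532 bp with TSPAN8, which runs on the other strand. TSPAN8, at 0.382 to 5.87 CPM, was also higher in the 3 groups, with log2 fold changes of 2.75 to 2.92 and edgeR's adjusted p of 0.00818 to 0.0162.

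The other calls concerned L + N. APC2, a relative of the destruction complex protein APC, was at 1.85, 1.63 and 1.81 CPM in L − N and 4.27, 3.78 and 4.45 in L + N, a log2 fold change of 1.24 ± 0.27 (edgeR's adjusted p = 0.0185). It stood at 3.89, 2.70 and 3.31 CPM in H − N and 2.31, 3.04 and 3.37 in H + N, all above L − N. TLE2, a corepressor of the LEF1 and TCF7 family, was at 12.1, 3.14 and 5.04 CPM in L − N and 17.0, 15.8 and 21.3 in L + N, a log2 fold change of 1.42 ± 0.39 (edgeR's adjusted p = 0.0427). In H − N it had 19.7, 18.0 and 15.0 CPM and in H + N 17.3, 14.7 and 19.9 CPM, also above L − N in every library. APC itself had 29.4, 45.1 and 41.4 CPM in L − N against 75.8, 91.7 and 56.9 in L + N, a log2 fold change of 0.95 ± 0.27 (edgeR's adjusted p = 0.0464) under the fold threshold. It was at 18.0, 35.6 and 34.6 CPM in H − N and 55.1, 58.2 and 45.1 in H + N. With NCG its log2 fold change was 0.90 ± 0.19 (edgeR's adjusted p = 0.0178, between 0.00029 and 0.0477 over the alternatives, DESeq2 included), also under the fold threshold. The APC2 call was lost without L − N replicate 2 or 3 or any L + N library (edgeR's adjusted p between 0.0538 and 0.0731). That of TLE2 was kept without L − N replicate 1 or without the third replicate of H − N or H + N, and was lost in the other 9 cases (0.0536 to 0.156). RSPO3, an R-spondin ligand, was low and overlapped between all groups. It was at 4.27, 1.82 and 2.42 CPM for L − N, 2.47, 2.91 and 1.44 for L + N, 2.18, 4.23 and 1.52 for H − N and 3.96, 1.90 and 1.59 for H + N.

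L − N replicate 1 was the highest of the 12 libraries for 13 of the 38 genes (34.2%), against 9.51% of all genes tested. WIF1 was at 52.8 CPM there and at most 13.2 CPM in any other library, and FZD7 at 91.1 CPM against 43.3 CPM in the next library. SFRP2, FZD4, WNT4, LEF1 and 7 others were also highest in it. The median coefficient of variation over the 12 libraries was 41.8% for the 38 genes and 23.3% for all genes tested.

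**Figure D5:**
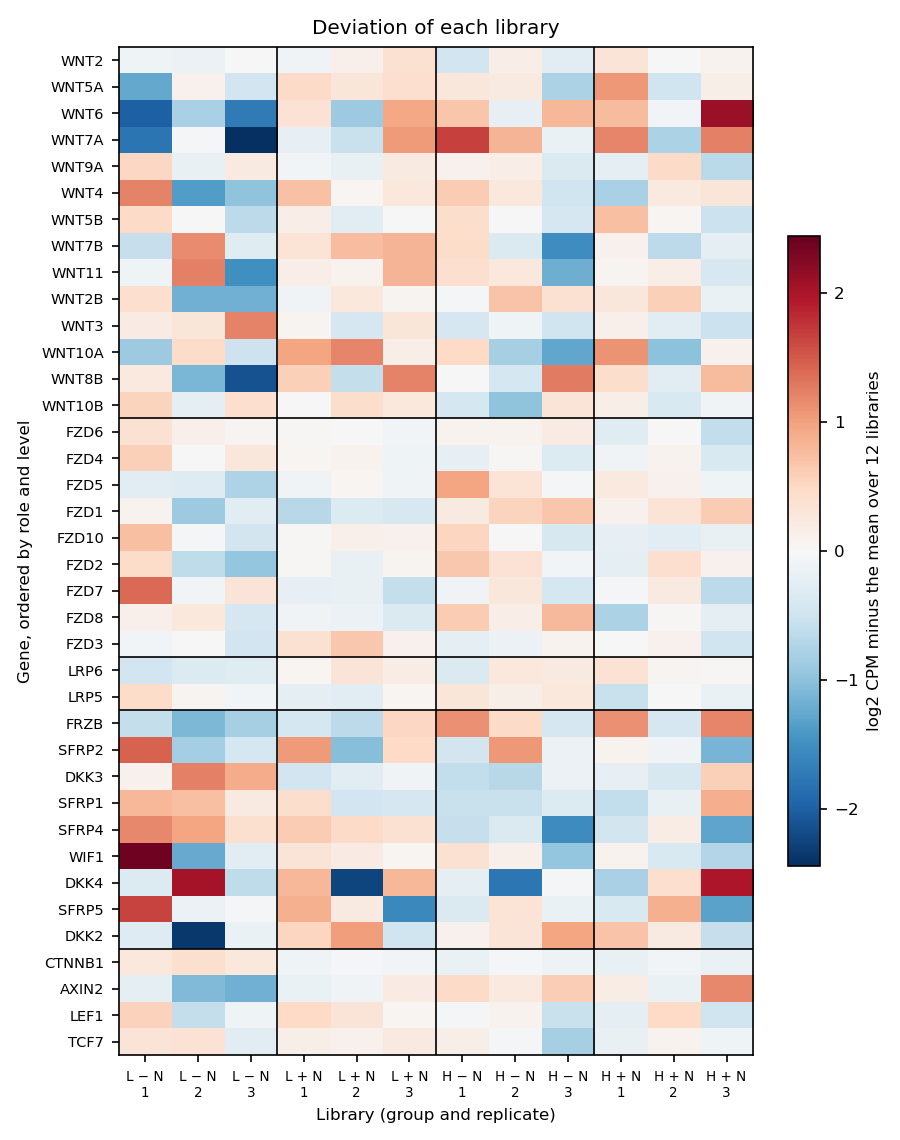
log2 CPM of the 38 tested genes in each library minus the mean over the 12 libraries, with genes ordered by role and level (horizontal lines separate roles) and libraries by group (vertical lines). WIF1, FZD7, SFRP2, WNT4 and SFRP5 stand out in L − N replicate 1, and the other L − N libraries are low for WNT2B and AXIN2.

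Without L − N replicate 1, the fit tested 39 genes of the set and more of them were called: 3 for H + N, 6 for H − N, 4 for L + N, 2 for DF, 0 for NCG (11 at an unadjusted p below 0.05) and 1 for the interaction. The shares over all genes were 6.09%, 7.19%, 5.85%, 2.13%, 1.71% and 2.22%. AXIN2 then passed in H + N (log2 fold change 1.64 ± 0.34, edgeR's adjusted p = 0.0148), H − N (1.57 ± 0.34, 0.0135), L + N (1.12 ± 0.33, 0.0497) and for DF (1.04 ± 0.22, 0.0192). WNT2B, at 6.11 CPM in L − N replicate 1 and 1.94 and 1.95 CPM in the other L − N libraries, against 4.05 to 7.49 CPM in the other groups, passed in H − N (1.61 ± 0.34, 0.0126), H + N (1.49 ± 0.34, 0.0213) and L + N (1.32 ± 0.33, 0.0303). DKK3 passed in all 3 groups (−1.53 ± 0.27 in H − N, −1.35 ± 0.27 in L + N and −1.01 ± 0.27 in H + N) and in the interaction (1.87 ± 0.37, edgeR's adjusted p = 0.0296). FZD1 and FZD2 were called higher and SFRP4 lower in H − N, SFRP4 also lower for DF, and WNT4 higher in L + N. WNT6 was no longer called. Of the other pathway genes, 5 were called for H + N without this library (4 higher, 1 lower) and 8 for H − N (7 higher, 1 lower). For L + N 5 were called, all higher, and the shares over all genes are those given above. Among them, NOTUM, a secreted enzyme that inactivates Wnt ligands, was called higher in all 3 groups. So was RNF43, a ligase that removes Frizzled receptors from the cell surface. ZNRF3, a relative of RNF43, was called higher in H − N. NOTUM was at 46.7 CPM in L − N replicate 1, 3.57 and 2.69 CPM in the other L − N libraries and 6.99 to 27.9 CPM on the other diets. RNF43 was at 28.0 CPM in L − N replicate 1, 12 and 13.2 CPM in the others and 19.8 to 35.9 CPM on the other diets. NOTUM, RNF43 and ZNRF3 were chosen after their values were seen. The part of smooth muscle or gland RNA in the values of this library was not tested. Leaving out the other L − N libraries gave fewer calls. Without L − N replicate 2 the set had 1, 0 and 0 calls for H + N, H − N and L + N. Over all genes there were 342, 122 and 543. Without L − N replicate 3 the set had 0 in each, beside 4, 6 and 143 over all genes. On the first principal component, replicate 1 lay nearer to the other groups than L − N replicates 2 and 3.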

How the data were processed

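Endometrial poly(A) RNA was sequenced in 12 libraries, 3 per group, in pairs of reads on an Illumina instrument. The authors deposited a table of read counts per gene, not normalized, and FPKM values derived from them by gene length and sequencing total. The submitters' processing notes name fastp 0.22.0, HISAT2 2.1.0, HTSeq 0.9.1 and Sscrofa11.1. The strand setting of the counting is not given in the sources used here. Libraries were grouped by their titles.

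Counts were fitted with edgeR 4.0.16 (under R 4.3.3, with limma 3.58.1): filterByExpr on the 4 groups (15351 genes kept), TMM scaling, and a quasi-likelihood fit with one mean per group on 12 libraries (8 residual degrees of freedom, biological coefficient of variation 0.269). Alternatives were DESeq2 1.42.0, other scalings, no filter, no fold threshold, a replicate block, each pair of groups alone and each library left out. FPKM as deposited served only to compare levels between genes. Compared in pairs, replicates of a group gave a chi-square of 23.3 to 99.8 per gene, so counting error was a small part of the spread.

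The 45 genes, the list of 75 other pathway genes (71 found) and the markers were chosen with earlier results of these data known. Values in every library are given for genes called, the 3 with the smallest p per comparison, the most abundant of each role, and LGR5, RSPO3 and APC. Equal replicate numbers did not pair the libraries: same-number deviations correlated at −0.322 to 0.283 (median −0.0413) over 18 pairs, 3 of them above 0.1. The sources describe 6 sows sampled per group but do not tie libraries to animals, so p-values measure the spread between these libraries.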

Additional observations from a re-analysis of the deposited data

How the results depend on the processing

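The direction of all 63 gene results held in every alternative. These results are of the genes chosen for values in every library, in comparisons where edgeR's unadjusted p was below 0.05. Most alternatives refitted nearly the same counts, so a change of direction was unlikely from the start. Called genes of the set under DESeq2 numbered 5 for H + N, 7 for H − N, 2 for L + N, 3 for DF, 1 for NCG and 1 for the interaction, against 2, 2, 1, 0, 0 and 0 with edgeR. Over all genes DESeq2 called 988, 913, 883, 290, 355 and 184 in the same order, against 549, 446, 613, 4, 276 and 0 with edgeR. Fitted on the 2 groups alone, each of the 3 group comparisons called 0. With the replicate block (a fit that pairs equal replicate numbers) H + N called 1 gene, SFRP4 (lower, log2 fold change −1.35, edgeR's adjusted p = 0.0305), while AXIN2 (1.20, 0.0589) and WNT6 (2.35, 0.0518) were no longer called. Without the fold threshold H − N called 4 and L + N 2. Leaving out 1 library gave 0 to 4 for H + N, 0 to 6 for H − N, 0 to 4 for L + N, 0 to 2 for DF, 0 to 0 for NCG and 0 to 1 for the interaction. Of the 5 calls, 3 to 8 of the 12 fits with a library left out made the same call, and WNT6 was the one called 8 times.

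For the other pathway genes DESeq2 called 2 for H + N, 2 for H − N, 2 for DF and 2 for the interaction. Without the fold threshold 2 were called for H + N, 5 for L + N and 3 for NCG, and with the replicate block 0 for NCG. Left-out libraries gave 0 to 5 (H + N), 0 to 8 (H − N), 0 to 5 (L + N), 0 to 2 (NCG), 0 to 3 (DF) and 0 to 1 (interaction).

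Over all genes, H + N called 549 with edgeR, 988 with DESeq2, 1223 without the fold threshold, 87 on its 2 groups and 1 to 948 with a library left out. H − N called 446, 913, 809, 3 and 0 to 1120, with 254 under the replicate block. L + N called 613, 1474 without the fold threshold and 143 to 911 with a library left out. NCG called 276, 1116 and 157 to 340. DF called 4, 290 with DESeq2, 8 without the fold threshold, 1 with the block and 0 to 331. The interaction called 0, 184 with DESeq2 and 0 to 346. The cause of these changes was not tested. The 7 untested genes had 1 to 83 reads over the 12 libraries, and the lowest tested gene of the set, WNT10A, had 85.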
